A study of Mus musculus with 12 samples.

Results

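Mouse preosteoblasts that shared medium with osteoclasts on titanium with nanotopography were compared with the same cells grown alone on control titanium, the groups of the study that differ in both the surface and the osteoclasts. The libraries were taken by their group labels, 3 per group, and make up 6 of the 12 libraries of the series. Of 52654 genes present in every file, the 13340 expressed above a low-count filter were tested.

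MC3T3-E1 subclone 14 is a clonal line of mouse calvaria preosteoblasts. In the co-culture on nanotopography, the cells grew alone on textured discs for 5 days. They then spent 2 days under inserts with 0.4 µm pores holding RAW 264.7 cells, a mouse macrophage line that had been driven towards osteoclasts with 50 ng/mL RANKL. Isolated control cells grew on control titanium with no insert and no RAW 264.7 cells. All groups received 7 mM beta-glycerophosphate and 5 µg/mL ascorbic acid, and osteoblast RNA was taken on day 7. The other groups of the series, co-culture on control titanium and isolated cells on nanotopography, had 3 libraries each. The submitters describe the triplicates as biological. Osteoclasts, RANKL, the insert and the surface all differ between the groups compared, so their effects cannot be told apart here. The labels also carry an unexplained code with the letter F whose values the groups do not share, and this too cannot be told apart from them.

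Osteoblasts build bone by secreting a collagen matrix and by releasing phosphate for mineral under the control of transcription factors such as Runx2 and Sp7. Osteoclasts form from macrophage precursors under RANKL, and osteoblasts hold them back with osteoprotegerin, a decoy receptor for RANKL. Enzymes that write or erase methyl groups on histones set how open such genes are to transcription. The title of the study asks whether nanotopography softens the osteoclast effect on osteoblast differentiation through histone methylation. The comparison here measures the whole distance between the co-culture on nanotopography and the baseline.

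Libraries of the co-culture on nanotopography held 6392210 to 7565815 counts, against 5866842 to 8386870 counts in isolated control libraries. Mitochondrial ribosomal RNA took 8.66% to 15.8% of counts in the co-culture on nanotopography, against 6.70% to 9.80% in isolated controls. The noncoding genes Gm26917 and Gm42418, which hold ribosomal RNA sequence, took 0.35% to 0.80% against 2.77% to 5.46%. Levels below are CPM (the usual counts-per-million unit, relative to the library total) after scaling by the trimmed mean of M values (TMM), and a fold change is the log2 ratio of co-culture on nanotopography over isolated control from edgeR, with its standard error (SE). Spread between replicates amounted to a biological coefficient of variation of 12.3% over all 12 libraries.

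A trend with base composition ran through the comparison and is shown in the plot of gene level by GC content. The median log2 fold change was 0.45 over the 999 genes under 40% GC and -1.09 over the 489 genes of 60% GC and over. All 3 libraries of the co-culture on nanotopography stood above their isolated counterparts in the lowest GC class and below them in the highest. Replicate 1 of the co-culture on nanotopography stood farthest out. Its median deviation was -1.09 in the highest class, against -0.68 and -0.67 in replicates 2 and 3. Results are therefore given from a plain model and from a GC-adjusted model, whose offsets take out, library by library, the dependence on GC content and on transcript length. A gene is said below to have risen or fallen only if both models called it in the same direction at an adjusted p below 0.05.

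**Figure D1:**
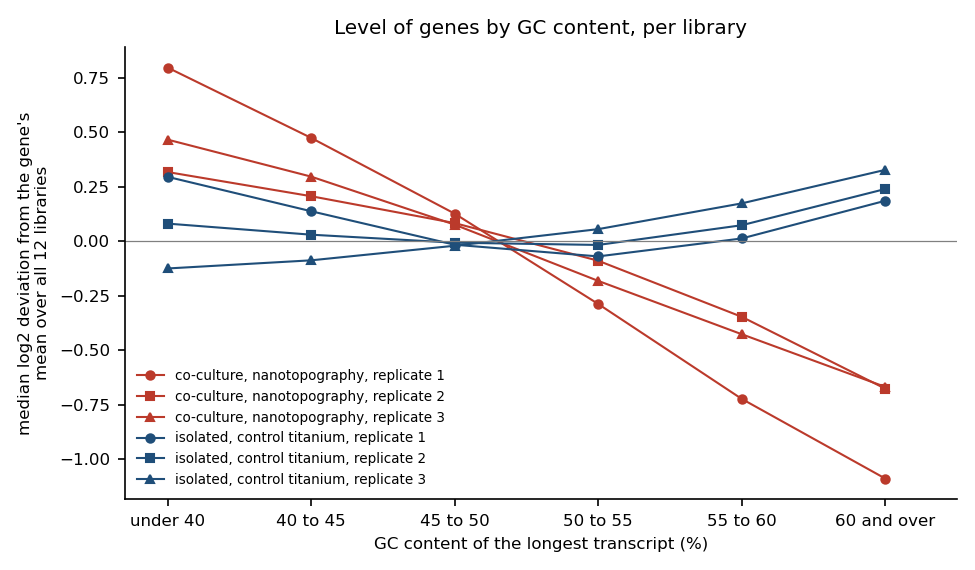
Median deviation of log2 expression from each gene's mean over all 12 libraries (vertical axis) in classes of GC content in percent (horizontal axis), with a line per library. The co-culture on nanotopography (red) falls across the classes and replicate 1 reaches -1.09 in the highest class, while isolated controls (blue) end between 0.19 and 0.33.

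In the plain model 5279 genes (39.6% of those tested) differed, 2362 of them higher (17.7%) and 2917 lower (21.9%) in the co-culture on nanotopography. The GC-adjusted model called 4077 genes (30.6%), 1987 higher (14.9%) and 2090 lower (15.7%). Both models called 2789 genes in the same direction (20.9%), of which 1264 rose (9.48%) and 1525 fell (11.4%). Another 36 genes were called in opposite directions. At least a 2-fold change in both models was reached by 227 genes that rose and 338 that fell. Without replicate 1 of the co-culture on nanotopography, 1018 genes rose and 1182 fell in both models. The libraries did not overlap for 3108 genes on the higher side (23.3%) and 3586 on the lower side (26.9%).

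Transcripts typical of macrophages and osteoclasts were measured first, since RAW 264.7 cells were present in the co-culture only. The 18 macrophage markers summed to 15.9, 39.3 and 51.0 CPM before TMM scaling in the co-culture on nanotopography, against 6.74, 8.35 and 4.6 in isolated controls. Adgre1, C1qa, C1qb, Cd53, Clec5a, Cybb, Itgam, Mpeg1, Ptprc and Tyrobp were at 0 in the isolated controls, and C1qa and C1qb were at 0 in the co-culture as well. Clec5a, a myeloid receptor, had 19, 38 and 57 counts in the co-culture on nanotopography and 0 in isolated controls, at least 39.0-fold higher against a limit of 3 counts over the group. Atp6v0d2, a subunit of the osteoclast proton pump, had 13, 31 and 29 counts against 0, at least 25.0-fold higher on the same limit. Ptprc, the pan-leukocyte antigen CD45, had 44 counts against 0 and was at least 15.1-fold higher. These counts were low, and they were lowest in replicate 1 of the co-culture on nanotopography.

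The 12 osteoclast markers summed to 307 to 396 unscaled CPM in the co-culture on nanotopography, against 304 to 319 in isolated controls. Ctsk, Itgb3, Nfatc1 and Mmp9 also had counts in isolated controls. Over the group, Itgb3 stood at 95.9 unscaled CPM in the co-culture on nanotopography against 47.2 in isolated controls, and Ctsk at 184 against 171. Nfatc1 (47.9 against 57.2), Mmp9 (15.7 against 19.1) and Tcirg1 (10.2 against 14.6) stood lower in the co-culture. Atp6v0d2, Calcr, Dcstamp, Oscar and Tnfrsf11a were at 0 in isolated controls. Calcr, the calcitonin receptor, was at 0 in both groups. All 13 osteoblast markers were detected in every library, at a summed 57500 to 71600 unscaled CPM in the co-culture on nanotopography, against 106000 to 118000 in isolated controls. These sums were not GC-adjusted. By gene, the plain model called 11 of the 13 lower (84.6%, against 21.9% of all genes tested). Both models called 7 lower (53.8%, against 11.4%). The median log2 fold change of the 13 was -0.70, and -0.34 after GC adjustment. The part of GC content in the sums was not tested. Fewer cells of a type and less RNA per cell cannot be told apart in bulk libraries.

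Lpl, lipoprotein lipase, had the highest fold change of the genes named by rule. It had 56, 145 and 137 counts in the co-culture on nanotopography and 2, 1 and 1 counts in isolated controls. Levels were 7.95, 18.5 and 20.8 CPM against 0.26, 0.12 and 0.17 CPM (log2 fold change 6.31 ± 0.61 SE, adjusted p = 5.76e-07). Macrophages also express Lpl, and its order over the 3 co-culture libraries followed that of the macrophage markers, lowest in replicate 1 and highest in replicate 3. Their part in the result was not tested.

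Genes of matrix remodelling and secreted regulators were among those named. Mmp13, the collagenase that osteoblasts use to cut fibrillar collagen, stood at 693, 515 and 636 CPM in the co-culture on nanotopography, against 89.8, 69.4 and 88.5 CPM in isolated controls (log2 fold change 2.90 ± 0.17 SE, adjusted p = 1.21e-09, GC-adjusted 2.60). Timp3, a matrix-bound inhibitor of metalloproteinases, stood at 1217, 1075 and 1082 CPM, against 187, 205 and 263 CPM (2.37 ± 0.13, adjusted p = 7.78e-10). A protease and an inhibitor thus rose together, with no overlap between libraries for either, as the naming rule required. Igfbp5, an insulin-like growth factor binding protein of bone matrix, had 518, 541 and 551 CPM in the co-culture on nanotopography and 216, 206 and 192 CPM in isolated controls (1.39 ± 0.10, adjusted p = 3.08e-08). Fn1, fibronectin, had 16890, 18700 and 20020 CPM against 9508, 8861 and 9054 CPM (1.02 ± 0.10, adjusted p = 6.58e-07). Inhba, which encodes the activin A subunit, had a log2 fold change of 1.42 ± 0.18 and 1.02 after GC adjustment. Ccn5, a matricellular protein of the CCN family, had 9.51, 11.8 and 10.95 CPM against 1.17, 1.52 and 4.71 CPM (2.22 ± 0.33), and replicate 3 of the isolated controls was the highest of its group.

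Signalling and stress genes were also among those named by rule. Ptgs2, the inducible cyclooxygenase that makes prostaglandins, stood at 266, 211 and 241 CPM in the co-culture on nanotopography, against 42.7, 39.0 and 35.3 CPM in isolated controls (2.62 ± 0.12, adjusted p = 1.17e-10). Tnfrsf9, the costimulatory receptor 4-1BB, had 40.7, 52.4 and 43.2 CPM against 5.61, 6.53 and 8.24 CPM (2.76 ± 0.16). Tec, a non-receptor tyrosine kinase, had 8.23, 8.52 and 9.13 CPM against 1.83, 1.28 and 1.68 CPM (2.43 ± 0.25). Every co-culture library exceeded every isolated library for these 3 genes, as the naming rule required. Gadd45a, a growth arrest and DNA damage gene, had 11.9, 9.41 and 10.5 CPM against 1.57, 0.82 and 1.51 CPM (3.04 ± 0.29). Hmox1, heme oxygenase, had 217, 261 and 233 CPM against 27.5, 32.9 and 46.4 CPM (2.74 ± 0.15, adjusted p = 7.78e-10, GC-adjusted 3.09). Bhlhe40, a transcriptional repressor induced by hypoxia and growth signals, had 490, 496 and 492 CPM against 218, 218 and 255 CPM (1.10 ± 0.10).

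**Figure D2:**
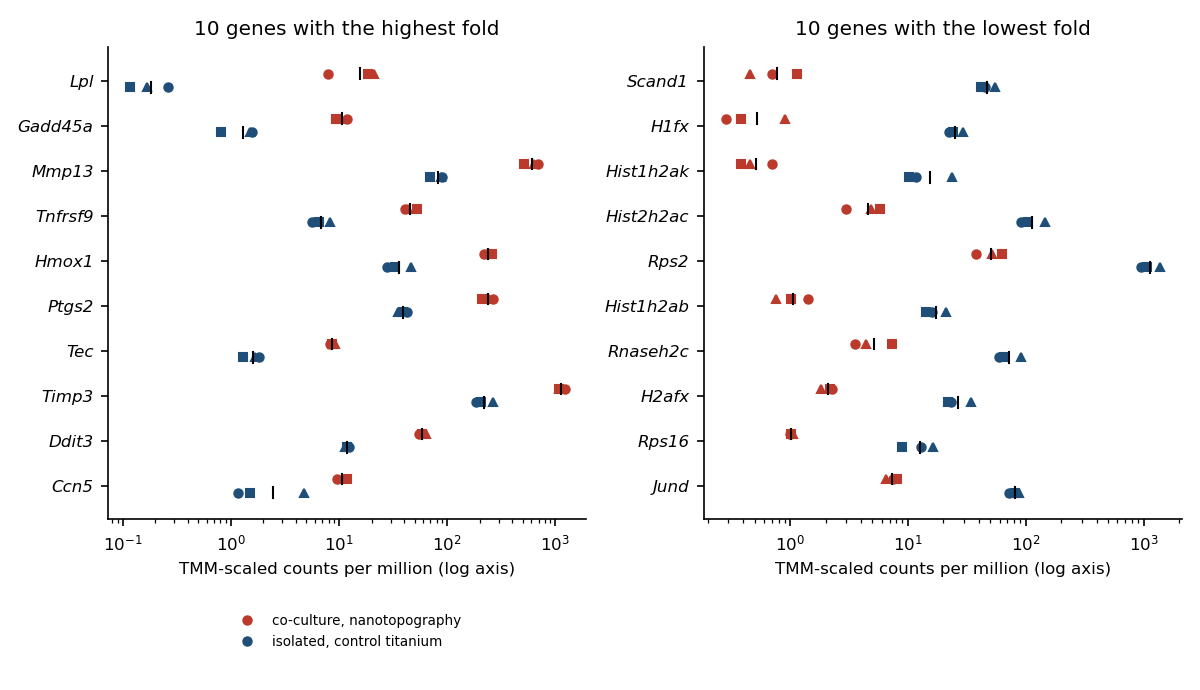
Expression in CPM on a log axis of the 10 genes with the highest (left) and the 10 with the lowest (right) fold change among protein-coding genes with a mean of at least 5 CPM that passed the naming rule, with red for co-culture on nanotopography, blue for isolated controls, circles, squares and triangles for replicates 1, 2 and 3, and black ticks for group means. The colours do not overlap for any of these genes, as the rule for naming them required, and Lpl shows the widest gap on the left.

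Heat shock genes encode chaperones that refold damaged proteins, and heat shock factor binds repeats of a short motif before their start sites. Of 24 heat shock genes tested, 11 rose (45.8%) and 2 fell in both models, against 9.48% and 11.4% of all genes tested. Their median log2 fold change was 0.44, and 0.40 after GC adjustment, against 0.0011 and -0.0031 over all genes tested. Hsph1, the chaperone HSP110, stood at 227, 229 and 227 CPM in the co-culture on nanotopography, against 56.5, 50.0 and 45.8 CPM in isolated controls (2.16 ± 0.13, adjusted p = 1.77e-09). Hspa1b, the inducible HSP70, had 9.51, 12.1 and 12.6 CPM against 2.22, 2.33 and 3.03 CPM (2.19 ± 0.29). Hsp90aa1, inducible HSP90, had 172, 115 and 133 CPM against 51.5, 41.5 and 30.1 CPM (1.76 ± 0.21). The mitochondrial chaperone Hspa9 had 1131, 1082 and 997 CPM against 391.6, 396 and 423 CPM (1.41 ± 0.10), and its partners Hspe1 (1.04 ± 0.18) and Hspd1 (0.48 ± 0.12) rose as well. Without replicate 1 of the co-culture on nanotopography, 11 rose and 1 fell. Cryab, the small heat shock protein alpha B-crystallin, fell (-0.92 ± 0.12), as did the HSP90 cochaperone Ahsa1 (-0.37 ± 0.13).

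The promoters of 3 genes that rose are shown for the heat shock motif, searched as GAANNTTC and TTCNNGAA on both strands and printed in capitals. Each runs 5′ to 3′ on the strand of the gene, from 250 bases before the RefSeq start site to 50 bases after it, on GRCm38.p6. Hsph1 lies at chr5:149636287-149636586 on the minus strand, Hspe1 at chr1:55087898-55088197 on the plus strand and Hspa1b at chr17:34959189-34959488 on the minus strand. Hspe1 shares its start region with Hspd1, which is read the opposite way.
Hsph1: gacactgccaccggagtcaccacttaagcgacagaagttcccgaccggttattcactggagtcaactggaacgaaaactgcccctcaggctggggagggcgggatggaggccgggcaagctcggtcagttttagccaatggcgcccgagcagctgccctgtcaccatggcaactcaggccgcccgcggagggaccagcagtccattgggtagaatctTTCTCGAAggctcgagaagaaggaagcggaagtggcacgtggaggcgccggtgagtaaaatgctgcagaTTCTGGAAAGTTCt
Hspe1: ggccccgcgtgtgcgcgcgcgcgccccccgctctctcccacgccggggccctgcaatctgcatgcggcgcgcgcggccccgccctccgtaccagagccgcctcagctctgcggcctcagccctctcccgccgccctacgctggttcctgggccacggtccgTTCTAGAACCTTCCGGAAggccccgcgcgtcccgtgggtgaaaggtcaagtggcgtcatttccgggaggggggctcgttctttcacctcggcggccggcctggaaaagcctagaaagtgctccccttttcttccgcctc
Hspa1b: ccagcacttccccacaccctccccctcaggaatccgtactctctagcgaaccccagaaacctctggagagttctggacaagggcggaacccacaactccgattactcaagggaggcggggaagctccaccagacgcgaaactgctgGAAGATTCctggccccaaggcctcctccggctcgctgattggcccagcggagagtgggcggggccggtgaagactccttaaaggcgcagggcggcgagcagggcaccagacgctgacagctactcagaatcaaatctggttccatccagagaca
Hsph1 and Hspe1 held 3 matches each and Hspa1b held 1. The last stretch in capitals of Hsph1 lay after the start site. Such a match stood in 15.1% of all 32851 promoters in the table, and in 11 of the 18 tested heat shock genes with a promoter there. The first share counts single promoters, while a gene counted if any of its promoters matched, so the shares are not alike. A longer form with 3 units in a row stood in 0.603% of all promoters, and among the 18 in those of Chordc1, Hspd1, Hspe1 and Hsph1. Chordc1 was not called in the plain model (0.40 ± 0.16) or after GC adjustment (-0.11). A match describes letters only and says nothing of binding.

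The integrated stress response slows translation and raises transcription factors of the ATF and CEBP families. Of its 26 genes tested, 7 rose (26.9%) and 4 fell (15.4%), with a median of -0.19 and, after GC adjustment, 0.15. Ddit3, the factor CHOP, stood at 54.3, 58.8 and 63.1 CPM in the co-culture on nanotopography, against 12.4, 11.8 and 11.3 CPM in isolated controls (2.31 ± 0.12, adjusted p = 4.18e-10). Atf3 had 11.9, 15.3 and 11.9 CPM against 1.96, 3.62 and 3.70 CPM (2.08 ± 0.22). Ppp1r15a, which restores translation, had 55.6, 74.7 and 64.7 CPM against 27.9, 23.3 and 27.9 CPM (1.30 ± 0.14), and the pseudokinase Trib3 rose by 1.00 ± 0.17. The members that fell were enzymes of proline and serine synthesis, Pycr1 (-1.30 ± 0.16), Psat1, Psph and Aldh18a1. Among 21 endoplasmic reticulum chaperone genes, 6 rose, led by the oxidoreductase Ero1l (2.03 ± 0.14) and including Hsp90b1 (0.91 ± 0.13) and Hspa5 (0.70 ± 0.10), and Manf and Xbp1 fell.

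Atf3 and Trib3 are shown for the shared motif of CEBP and ATF factors, searched as TGATGNAA on both strands and in capitals. Atf3 lies at chr1:191183284-191183583 and Trib3 at chr2:152344011-152344310, both on the minus strand of GRCm38.p6, in the same window as above.
Atf3: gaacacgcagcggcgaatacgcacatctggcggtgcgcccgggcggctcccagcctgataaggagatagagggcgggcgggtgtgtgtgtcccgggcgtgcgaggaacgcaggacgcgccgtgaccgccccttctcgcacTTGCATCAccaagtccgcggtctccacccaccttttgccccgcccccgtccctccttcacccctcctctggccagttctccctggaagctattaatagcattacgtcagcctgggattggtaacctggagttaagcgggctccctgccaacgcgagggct
Trib3: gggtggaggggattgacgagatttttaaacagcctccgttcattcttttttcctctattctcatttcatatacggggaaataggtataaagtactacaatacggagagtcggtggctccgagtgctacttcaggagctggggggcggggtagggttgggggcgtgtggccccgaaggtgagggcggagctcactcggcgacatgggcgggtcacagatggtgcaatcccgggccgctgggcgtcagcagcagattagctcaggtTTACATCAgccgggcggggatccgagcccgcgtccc
Each held 1 match, and that of Trib3 lay after the start site. The motif stood in 3.97% of all promoters and in 7 of the 25 tested members of the list that had a promoter in the table. Promoters and genes were counted as for the heat shock motif.

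Oxidative and metal responses were mixed. Of 17 genes for heme, iron and metals, 6 rose (35.3%) and 3 fell (17.6%). Besides Hmox1, the ferroxidase ceruloplasmin, Cp, had 228, 224 and 220 CPM in the co-culture on nanotopography, against 73.7, 64.8 and 73.4 CPM in isolated controls (1.67 ± 0.12). The iron exporter Slc40a1 had 9.22, 9.03 and 9.74 CPM against 2.48, 1.98 and 1.68 CPM (2.16 ± 0.27). Mt2, a metal-binding metallothionein, had 15.6, 18.7 and 19.8 CPM against 4.57, 4.55 and 9.25 CPM (1.60 ± 0.23), while its neighbour Mt1 had 14.8, 16.2 and 15.7 CPM against 9.39, 10.8 and 16.3 CPM and was not called in the plain model (0.37 ± 0.21). Blvrb, a biliverdin reductase, fell (-1.32 ± 0.18). Of 23 NRF2 targets, 6 rose and 3 fell: Nfe2l2, which encodes NRF2 itself (1.05 ± 0.09), the exporter Abcc1 (1.04 ± 0.10) and the glutathione enzyme Gclc (1.07 ± 0.14) rose, and Taldo1 (-1.42 ± 0.16) and Gpx1 (-1.29 ± 0.21) fell.

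The Mt2 promoter is shown for the metal response element, the site of the zinc-sensing factor MTF1, searched as TGCACNC and TGCGCNC on both strands and in capitals. It lies at chr8:94172368-94172667 on the plus strand of GRCm38.p6.
Mt2: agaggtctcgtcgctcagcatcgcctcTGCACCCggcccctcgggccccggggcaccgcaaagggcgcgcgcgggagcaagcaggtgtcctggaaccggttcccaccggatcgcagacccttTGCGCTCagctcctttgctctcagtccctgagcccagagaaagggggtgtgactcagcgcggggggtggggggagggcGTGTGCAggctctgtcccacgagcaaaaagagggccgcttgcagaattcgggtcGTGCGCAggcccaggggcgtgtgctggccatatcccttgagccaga
The Mt2 window held 4 matches. The element stood in 25.7% of all promoters and in 4 of 13 tested members of the metal list with a promoter in the table, again counted by promoter and by gene.

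Metabolic lists moved in opposite directions. Of 30 genes for glycolysis and hypoxia, 13 rose (43.3%) and 2 fell, with a median of 0.47 and 0.48 after GC adjustment. Car9, a carbonic anhydrase induced by hypoxia, stood at 110, 134 and 140 CPM in the co-culture on nanotopography, against 46.8, 45.6 and 56.9 CPM in isolated controls (1.36 ± 0.13). Vegfa, the endothelial growth factor, had 484, 465 and 523 CPM against 287, 248 and 220 CPM (0.96 ± 0.12), and Hif1a (0.89 ± 0.12) and the hexokinase Hk2 (0.79 ± 0.11) rose too. Pfkfb4 and Tpi1 fell, and 1 member fell without replicate 1 of the co-culture on nanotopography.

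Cholesterol and fatty acid synthesis showed decreases, with 16 of 30 genes falling (53.3%, median -0.42, GC-adjusted -0.46). Mvk, mevalonate kinase, had 4.68, 7.00 and 7.61 CPM in the co-culture on nanotopography and 20.8, 23.7 and 25.7 CPM in isolated controls (-1.86 ± 0.19, adjusted p = 9.80e-07). Fasn, fatty acid synthase, had 50.5, 78.9 and 77.7 CPM against 142, 157 and 171 CPM (-1.18 ± 0.16). Squalene epoxidase, Sqle, fell as well (-0.69 ± 0.10). No member rose in the plain edgeR model at an unadjusted p below 0.05 or in DESeq2.

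Lysosomal genes and targets of TFEB rose in 11 of 31 cases (35.5%, median 0.26, GC-adjusted 0.41), and none fell in both models. In the plain model 1 member was lower, in DESeq2 as well as in edgeR at an adjusted or unadjusted p below 0.05. Gpnmb, a lysosomal glycoprotein, had 5.82, 4.33 and 7.46 CPM in the co-culture on nanotopography, against 0.26, 0.70 and 0.67 CPM in isolated controls (3.39 ± 0.44), and it is also found in macrophages and osteoclasts. The macrophage markers given above were also higher in this comparison, but were lowest in replicate 1 of the co-culture, while Gpnmb was lowest in replicate 2. In the co-culture on control titanium Gpnmb had 5.08, 8.67 and 8.14 CPM, and the macrophage markers summed to 5.86 to 12.5 unscaled CPM. The part of macrophage transcripts in the Gpnmb result was not tested.

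Of 19 p53 targets, 9 rose (47.4%), among them the kinase Plk2 with 212, 209 and 193 CPM in the co-culture on nanotopography, against 80.6, 83.5 and 100.9 CPM in isolated controls (1.21 ± 0.11), and the p53 ligase Mdm2 (0.79 ± 0.13). The apoptosis genes Bbc3 (-1.75 ± 0.24) and Bax (-1.36 ± 0.19) were 2 of 4 members called lower in the plain model and missed the threshold after GC adjustment (-0.41 and -0.06). DESeq2 also called 4 members lower, and 4 reached an unadjusted p below 0.05. Among 24 immediate early genes, 7 rose, including Fosl1, Fos and Ier3 (1.22 ± 0.13), and 6 fell. Jund, an AP-1 subunit, had 7.52, 8.02 and 6.54 CPM against 71.8, 81.6 and 88.2 CPM (-3.44 ± 0.17, adjusted p = 1.77e-10, GC-adjusted -1.91). Klf2 (-2.41 ± 0.18), Junb (-1.98 ± 0.18), Klf4 (-0.93 ± 0.09) and Myc fell with it.

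Of 26 YAP targets and contractile genes, 8 rose (30.8%) and 2 fell. Tissue factor F3 had 89.1, 72.1 and 87.6 CPM in the co-culture on nanotopography and 28.3, 23.6 and 25.1 CPM in isolated controls (1.69 ± 0.13). Smooth muscle actin Acta2 had 988, 1302 and 1093 CPM against 468, 546 and 761 CPM (0.93 ± 0.16), and the YAP partner Tead1 rose by 0.81 ± 0.13. Growth factors and receptors rose in 8 of 23 cases and fell in 3, and the number that rose was 5 without replicate 1 of the isolated controls. Pdgfa, a platelet-derived growth factor chain, had 84.7, 88.0 and 83.8 CPM against 177, 190 and 180 CPM (-1.09 ± 0.09). Fgfr1 fell by 0.66 on the log2 scale.

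**Figure D3:**
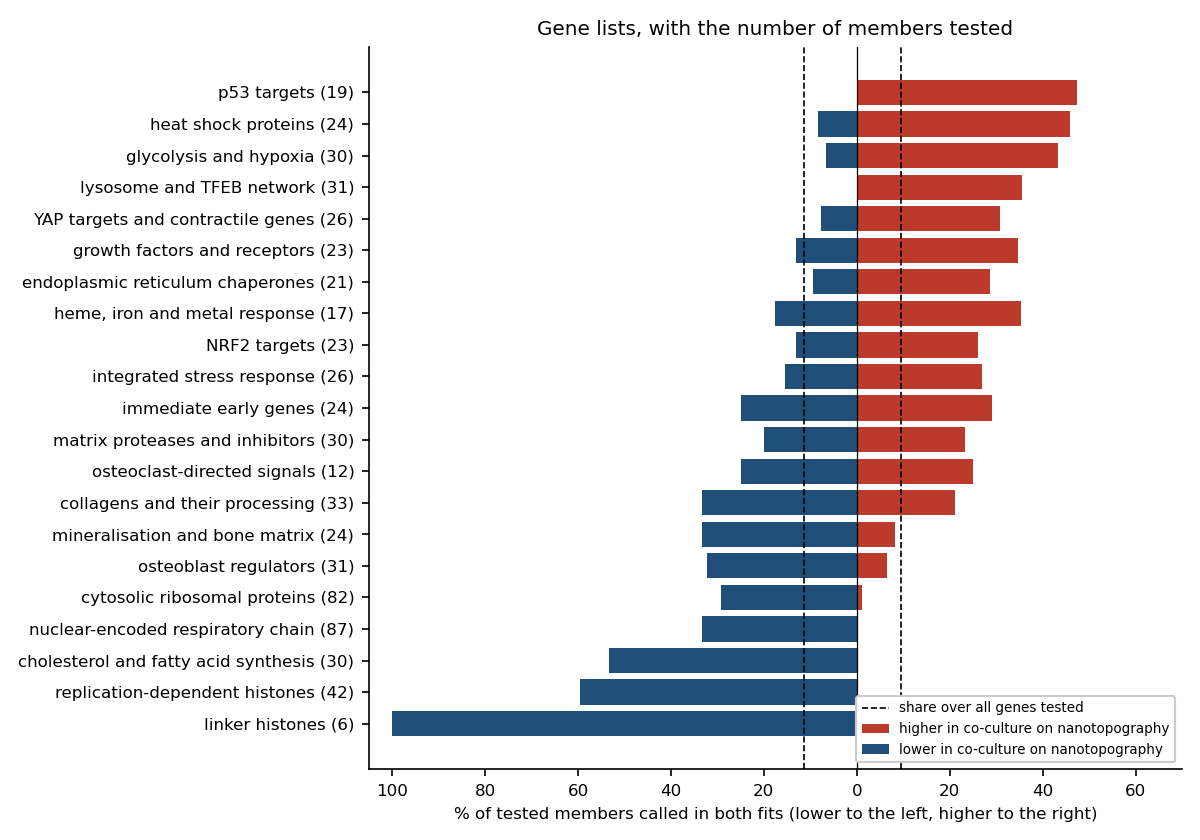
Percent of tested members of each gene list called in both models, with members that fell in co-culture on nanotopography to the left (blue) and members that rose to the right (red), and dashed lines at the shares over all genes tested, 11.4% and 9.48%. Stress, glycolysis and lysosome lists lie at the top with 26.1% or more of their members higher, and histone, lipid synthesis, respiratory chain and ribosomal lists lie at the bottom.

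Of the 10 genes named for the lowest fold change, 5 were histone genes. All 6 linker histone genes tested fell (5 without replicate 1 of the co-culture on nanotopography), and so did 25 of 42 replication-dependent core histone genes (59.5%, median -2.26, GC-adjusted -1.30). H1fx, a linker histone variant, stood at 0.28, 0.38 and 0.91 CPM in the co-culture on nanotopography, against 22.3, 24.3 and 29.3 CPM in isolated controls (-5.57 ± 0.30, adjusted p = 7.78e-10). Its GC content was 71.3% and its GC-adjusted change was -3.71. Hist2h2ac, an H2A gene, had 2.98, 5.85 and 4.87 CPM against 91.1, 105 and 145 CPM (-4.62 ± 0.39). Hist1h1c had 14.1, 26.3 and 22.7 CPM against 81.8, 91.9 and 108 CPM (-2.15 ± 0.22), and H2afx, a variant outside both lists and marked at DNA breaks, fell by 3.64 on the log2 scale. Core histone genes are near-identical copies, so how reads were split among them is uncertain. Of 25 genes of S phase and DNA replication tested, none rose and 1 fell in both models, and the plain model called 2 higher and 2 lower, as did DESeq2, with 3 higher and 4 lower at an unadjusted p below 0.05.

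Genes of the ribosome and the respiratory chain leaned the same way. Of 82 cytosolic ribosomal protein genes, 24 fell (29.3%) and 1, Rpl22, rose. Rps2 had 38.0, 63.4 and 51.7 CPM in the co-culture on nanotopography and 948, 1064 and 1386 CPM in isolated controls (-4.47 ± 0.21, adjusted p = 1.77e-10, GC-adjusted -3.87). Rplp0, a protein of the ribosomal stalk, had 212, 347 and 335 CPM against 1055, 1023 and 1321 CPM (-1.93 ± 0.17). These genes have many processed pseudogenes, and their counts carry that uncertainty. Of 87 nuclear-encoded respiratory chain genes, 29 fell (33.3%), but 19 without replicate 1 of the co-culture on nanotopography. Uqcrq, a subunit of complex III, had 4.12, 7.63 and 6.24 CPM against 32.1, 37.6 and 39.4 CPM (-2.59 ± 0.19). None of these 87 rose in both models, 2 were higher in the plain model and in DESeq2, and 3 were higher at an unadjusted p below 0.05.

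Other genes named by rule, for fold or for abundance, also fell. Scand1, a SCAN domain protein, stood at 0.71, 1.15 and 0.46 CPM in the co-culture on nanotopography, against 45.01, 41.9 and 54.9 CPM in isolated controls (-5.87 ± 0.26, adjusted p = 1.17e-10, GC-adjusted -4.04 at a GC content of 68.4%). Rnaseh2c, a subunit of ribonuclease H2, had 3.55, 7.38 and 4.41 CPM against 59.1, 65.5 and 91.2 CPM (-3.79 ± 0.32). Lmna, which encodes lamin A and C, had 216, 369 and 330 CPM against 698, 787 and 937 CPM (-1.40 ± 0.17). Rpn1, part of the oligosaccharyltransferase that glycosylates secreted proteins, had a log2 fold change of -1.24 ± 0.10. Galnt2, an enzyme that starts O-glycosylation and was picked after its values were seen, had 0 counts in the co-culture on nanotopography and 148 in isolated controls, at least 48.1-fold lower against a limit of 3 counts over the group.

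Bone matrix and mineralisation genes fell more often than they rose. Of 24 tested, 8 fell (33.3%) and 2 rose, with a median of -0.53 and -0.25 after GC adjustment. Smpd3, the neutral sphingomyelinase that feeds phosphate release, stood at 254, 282 and 300 CPM in the co-culture on nanotopography, against 1343, 1424 and 1289 CPM in isolated controls (-2.28 ± 0.11, adjusted p = 1.17e-10, GC-adjusted -1.90). Phospho1, the phosphatase of matrix vesicles, had 30.4, 42.6 and 34.7 CPM against 140, 158 and 135 CPM (-2.004 ± 0.15, GC-adjusted -1.07). Ifitm5, a membrane protein of mineralising osteoblasts, had 4.97, 5.98 and 8.06 CPM against 35.5, 35.9 and 44.8 CPM (-2.61 ± 0.22). No library of the co-culture reached the isolated range for these 3 genes, as the naming rule required for Smpd3. Over all genes tested, 26.9% had no such overlap on the lower side. Spp1, osteopontin, went the other way at 455, 402 and 504 CPM against 238, 195 and 190 CPM (1.13 ± 0.12). Sgms2, a sphingomyelin synthase outside this list, had 161, 136 and 144 CPM against 346, 373 and 323 CPM (-1.24 ± 0.10).

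Several osteoblast genes depended on how GC content was treated. Alpl, tissue-nonspecific alkaline phosphatase, had 74.9, 94.7 and 86.7 CPM in the co-culture on nanotopography and 124, 141 and 150 CPM in isolated controls, with a plain change of -0.70 ± 0.13 and an adjusted p of 0.00052. After GC adjustment it was -0.19 with an adjusted p of 0.0877. Osteocalcin, Bglap, was -0.86 ± 0.18 in the plain model and -0.18 after adjustment, and its near-identical copy Bglap2 was -0.53 ± 0.16 and then 0.22, so reads may be split between them. Sp7, osterix, was -0.49 ± 0.10 and -0.16 after GC adjustment (adjusted p = 0.143). Runx2 was not called by either model, at 364, 295 and 363 CPM against 389, 381 and 313 CPM (-0.08 ± 0.12). Ibsp, bone sialoprotein, was -0.49 and was called by both models, though the highest co-culture library and the lowest isolated library both stood at 9497 CPM. The plain call of Ibsp was lost without replicate 2 of the co-culture on nanotopography (-0.41, adjusted p = 0.0515) and without replicate 1 of the isolated controls (-0.35, adjusted p = 0.0685). That of Bglap2 was lost without replicate 2 (-0.37) or 3 (-0.47) of the co-culture on nanotopography or replicate 2 of the isolated controls (-0.46). Phex was called only after adjustment (-0.94).

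Regulators upstream of these genes fell in 10 of 31 cases (32.3%) and rose in 2. Axin2, a Wnt target and feedback inhibitor, had 8.09, 8.27 and 9.43 CPM in the co-culture on nanotopography and 24.9, 26.7 and 27.8 CPM in isolated controls (-1.62 ± 0.14, adjusted p = 1.37e-07). The BMP target Id3 had 6.95, 9.92 and 8.22 CPM against 39.5, 33.9 and 35.8 CPM (-2.12 ± 0.20). Id1 (-2.05 ± 0.27) and the inhibitor Smad6 (-1.35 ± 0.18), also BMP targets, fell with the Wnt factor Tcf7 (-0.92 ± 0.10), the homeobox factor Dlx5 (-1.13 ± 0.14), the vitamin D receptor Vdr (-0.97 ± 0.13), Bmp4 and Sox9. Bmpr1a, a BMP receptor, and Atf4 rose.

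Collagen genes and their processing enzymes split, with 7 of 33 rising and 11 falling. Col1a1, the main chain of bone collagen, stood at 20210, 23870 and 26230 CPM in the co-culture on nanotopography, against 48630, 44800 and 40650 CPM in isolated controls (-0.93 ± 0.11, adjusted p = 7.58e-06, GC-adjusted -0.34). Col1a2 fell by 0.86 on the log2 scale, and Col11a2 had 176, 216 and 225 CPM against 993, 956 and 737 CPM (-2.12 ± 0.15). The collagen chaperone Serpinh1 had 696, 925 and 853 CPM against 2143, 2243 and 2444 CPM (-1.47 ± 0.13). Col12a1, a collagen that coats fibrils, rose to 4400, 4187 and 4302 CPM in the co-culture on nanotopography, against 2246, 2006 and 1949 CPM (1.06 ± 0.11), as did the basement membrane chains Col4a1 and Col4a2. Matrix proteases and inhibitors rose in 7 of 30 cases and fell in 6, among them Timp1 (-0.91 ± 0.10), Adam12 and Adam15.

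Signals to osteoclasts changed in both directions. Osteoprotegerin, Tnfrsf11b, had 221, 201 and 233 CPM in the co-culture on nanotopography and 392, 339 and 362 CPM in isolated controls (-0.74 ± 0.11, adjusted p = 6.83e-05, GC-adjusted -0.98). Csf1, the macrophage growth factor that osteoclast precursors need, had 273, 302 and 295 CPM against 183, 180 and 179 CPM (0.68 ± 0.09). Tgfb1 fell (-1.38 ± 0.16) and the ligand Efnb2 rose (0.77 ± 0.12). Of 12 members tested, 3 rose and 3 fell. Tnfsf11, which encodes RANKL, had 0 counts in all 12 libraries, a level below 0.14 unscaled CPM over the group for the co-culture on nanotopography and below 0.137 for isolated controls, from a limit of 3 counts. Such limits cover counting error only.

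**Figure D4:**
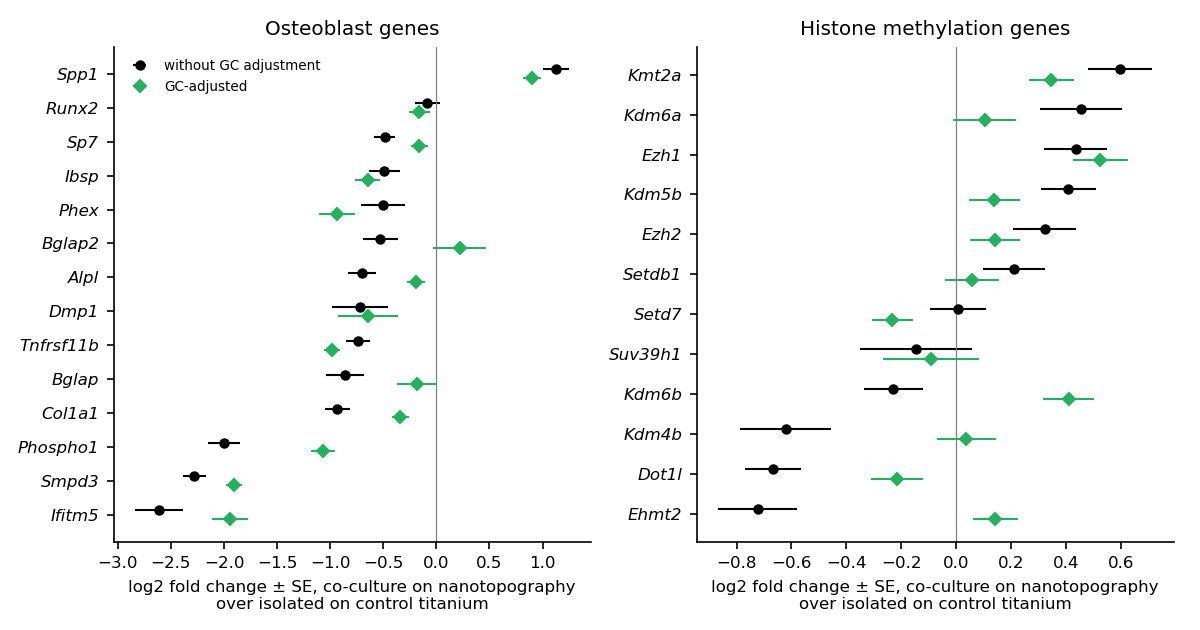
Log2 fold change with SE of 14 osteoblast genes (left) and 12 histone methylation genes (right), co-culture on nanotopography over isolated control, in the plain model (black circles) and after GC adjustment (green diamonds). Smpd3, Ifitm5 and Phospho1 lie below -1 in both models, while Ehmt2, Kdm4b, Kdm6b, Setd7 and Bglap2 cross 0.

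Of 12 panel genes that write or erase histone methylation, the plain model called 8, 5 higher and 3 lower, against 39.6% of all genes. Both models called 2 in the same direction, against 20.9% of all genes. Kmt2a, a writer of H3K4 methylation, had 147, 124 and 160 CPM in the co-culture on nanotopography and 100.9, 99.2 and 84.8 CPM in isolated controls (0.60 ± 0.12, adjusted p = 0.000595, GC-adjusted 0.35). Ezh1, a polycomb H3K27 methyltransferase, had 40.7, 44.0 and 44.6 CPM against 30.5, 33.2 and 31.8 CPM (0.44 ± 0.12, GC-adjusted 0.53). No other panel gene was called in the same direction by both models. Ezh2, the main polycomb methyltransferase, was 0.32 ± 0.12 in the plain model (adjusted p = 0.0337) and 0.14 after adjustment (adjusted p = 0.251). Its plain call was lost without replicate 1 of the co-culture on nanotopography (0.21) or replicate 2 (0.28) or 3 (0.28) of the isolated controls. The H3K9 writer Ehmt2 was -0.72 ± 0.14 and then 0.14, and the demethylase Kdm4b was -0.62 ± 0.17 and then 0.04. Kdm6b, which erases H3K27 methylation, was -0.23 ± 0.11 (adjusted p = 0.0988) and then 0.41 (adjusted p = 0.0015), so the sign of its estimate changed. Suv39h1 and Setdb1, both H3K9 writers, were not called by either model.

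Wider lists of these enzymes gave shares on both sides of the 9.48% of all genes that rose. Of 15 H3K4 writers 3 rose (20%), of 14 H3K27 and H3K36 writers 2 rose (14.3%), and of 22 demethylases 4 rose (18.2%) and 1, Kdm2b, fell. The plain model alone called 6 higher and 4 lower among the H3K4 writers, 8 higher (57.1%) and 0 lower among the H3K27 and H3K36 writers, and 8 higher and 3 lower among the demethylases. DESeq2 gave the same numbers for these 3 lists, and 1 H3K27 or H3K36 writer was lower at an unadjusted p below 0.05. Kdm3a, an H3K9 demethylase, was the demethylase with the largest rise (0.99, GC-adjusted 0.76). Of 10 H3K9 writers no gene was called by both models, and the plain edgeR model and DESeq2 each called 1 lower, which was also the number at an unadjusted p below 0.05. Of 11 writers at H3K79, H4K20 and arginine none was called by both models, while the plain model and DESeq2 each called 1 higher and 3 lower, with 1 and 4 at an unadjusted p below 0.05. Transcript levels give no measure of histone methylation itself.

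The co-culture on nanotopography was next set against the co-culture on control titanium, which tests the surface in the presence of osteoclasts. It called 5602 genes (42%) in the plain model, 2390 (17.9%) after GC adjustment and 1554 (11.6%) in both. The plain model split into 2485 higher (18.6%) and 3117 lower (23.4%), the GC-adjusted model into 907 (6.8%) and 1483 (11.1%), and the calls in both into 518 higher (3.88%) and 1036 lower (7.77%). This comparison shares the libraries of the co-culture on nanotopography with the one above, so levels are given side by side. Tnfrsf9 had 40.7, 52.4 and 43.2 CPM in the co-culture on nanotopography and 43.6, 49.6 and 41.4 CPM in the co-culture on control titanium (0.02 ± 0.14, adjusted p = 0.917). Timp3 was likewise not called (-0.04, adjusted p = 0.815), nor were Fn1 (-0.06, adjusted p = 0.667), Hspa9 (0.07, adjusted p = 0.574) and Ddit3 (0.21, adjusted p = 0.109). Hmox1 had 217, 261 and 233 CPM against 346, 351 and 326 CPM (-0.52, adjusted p = 0.00627) and was -0.11 after GC adjustment (adjusted p = 0.441).

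Other genes differed between the surfaces under osteoclasts. Mmp13 had 693, 515 and 636 CPM in the co-culture on nanotopography and 362, 303 and 261 CPM in the co-culture on control titanium (0.99, adjusted p = 0.000174, GC-adjusted 0.53). Hsph1 had 227, 229 and 227 CPM against 128, 118 and 169 CPM (0.72, adjusted p = 0.000321), Igfbp5 was 0.65 higher on the log2 scale and Lpl 3.37 higher. Mt2 was lower, at 15.6, 18.7 and 19.8 CPM against 46.9, 57.6 and 71.1 CPM (-1.69, adjusted p = 1.65e-05, GC-adjusted -1.17). Smpd3 had 254, 282 and 300 CPM against 442, 485 and 520 CPM (-0.79, adjusted p = 3.42e-05, GC-adjusted -0.34), and Ifitm5 (-1.999), Axin2 (-1.08) and Id3 (-1.46) were lower in both models. Macrophage markers summed to 15.9 to 51.0 unscaled CPM in the co-culture on nanotopography, against 5.86 to 12.5 in that on control titanium, and Lpl had 338 counts against 34. Their part in the surface difference was not tested.

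Between the co-cultures, 7.77% of all genes tested were lower on nanotopography in both models and 3.88% were higher. By list, 14 of 30 glycolysis and hypoxia genes were lower on nanotopography in both models, and 1 was higher. Among 26 integrated stress response genes 8 were lower. Asns, asparagine synthetase, had 183, 215 and 172 CPM in the co-culture on nanotopography and 298, 354 and 293 CPM in the co-culture on control titanium (-0.73). Of 82 cytosolic ribosomal protein genes 24 were lower, and of 87 respiratory chain genes 25 were lower and 3 higher. Col1a1 was -0.75 in the plain model and -0.15 after GC adjustment (adjusted p = 0.195), and Runx2 was 0.29 (adjusted p = 0.0602) and 0.30 (adjusted p = 0.0364).

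Whether the joint change equalled the sum of the single changes was tested as an interaction over all 4 groups. It called 6384 genes (47.9%) in the plain model, 2809 (21.1%) after GC adjustment and 1882 (14.1%) in both. The plain model split into 2999 higher (22.5%) and 3385 lower (25.4%), the GC-adjusted model into 1066 (7.99%) and 1743 (13.1%), and the calls in both into 719 higher (5.39%) and 1163 lower (8.72%). For Mmp13 the co-culture effect was larger on nanotopography by 1.35 on the log2 scale (adjusted p = 0.000256, GC-adjusted 0.56, adjusted p = 0.0273). For Bhlhe40 it was smaller on nanotopography, at -0.47 (adjusted p = 0.0104). The joint change lay below the sum of the single changes for Rps2, Rplp0, Jund, Lmna and Scand1, each called by both models. Their interaction values on the log2 scale were -2.25, -2.84, -2.34, -1.74 and -3.10. After GC adjustment they were -1.31, -2.25, -1.12, -1.29 and -1.97. The GC trend of isolated libraries on nanotopography ran opposite to that of the co-culture on nanotopography. Median deviations of these isolated libraries were -0.66, -0.131 and -0.574 under 40% GC, and 0.615, 0.351 and 0.587 at 60% GC and over.

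**Figure D5:**
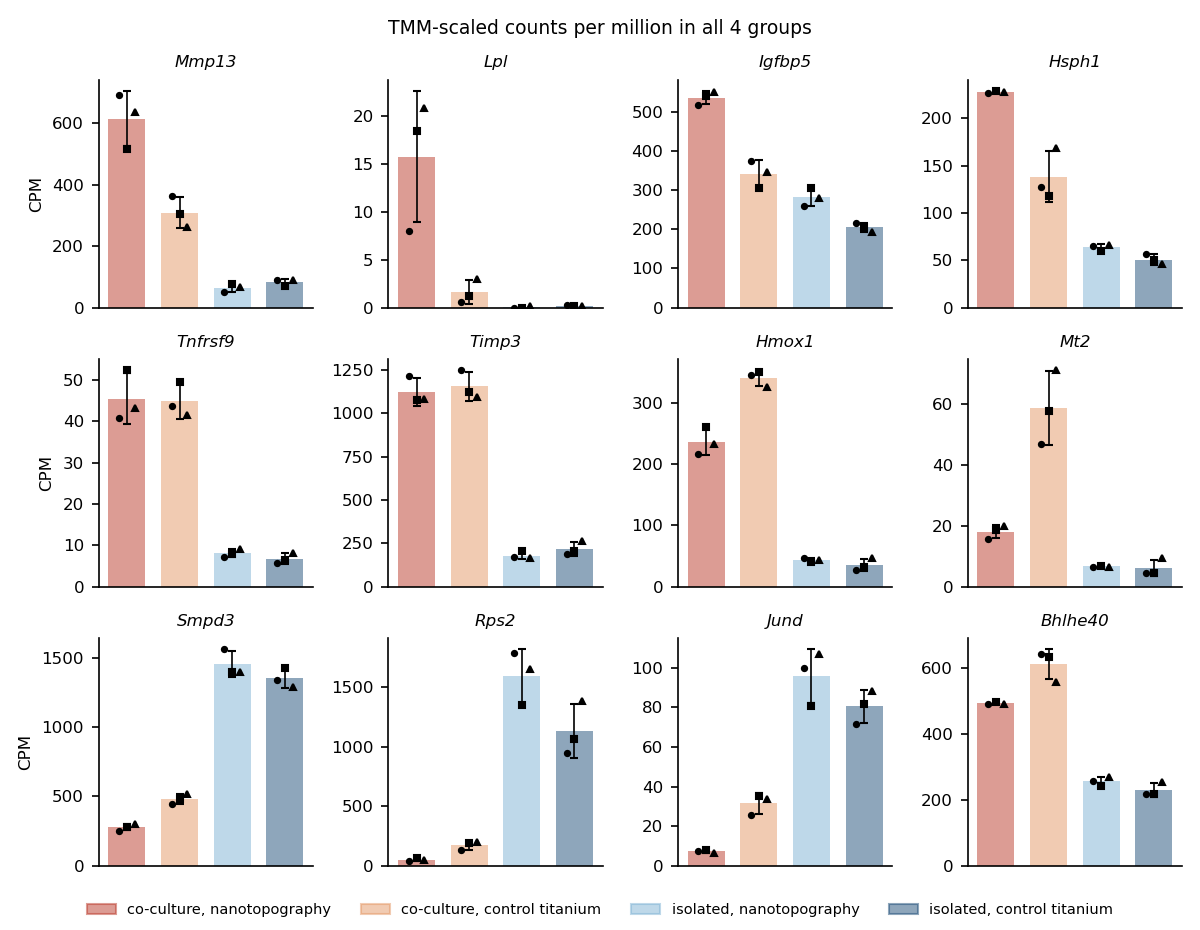
CPM of 12 genes in all 4 groups, with bars for means, error bars for the SD over 3 libraries, and circles, squares and triangles for replicates 1, 2 and 3. Tnfrsf9 and Timp3 stand at similar heights in both co-cultures, Mmp13, Lpl, Igfbp5 and Hsph1 stand highest on nanotopography, and Mt2 stands highest in the co-culture on control titanium.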

How the data were processed

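RNA-seq counts per gene were deposited by the authors, 1 table per library, as raw whole-number counts. STAR 2.4, HTSeq, cutadapt, FastQC 0.63, DESeq2 and the mm10 build are listed per the submitters' processing notes, with no role or order given. The 52654 genes present in all 12 files were used and 1621 of the longest file were left out. Gene length and GC content came from the longest GENCODE M21 transcript.

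Genes passing filterByExpr (minimum count 10) were fitted in edgeR 4.0.16 (R 4.3.3) with TMM scaling, robust quasi-likelihood and 4 group means over 12 libraries. P-values were adjusted by Benjamini-Hochberg over 13340 genes. The GC-adjusted model added offsets from a loess (span 0.3) of each library's deviation on GC content and length. On simulated data for the joint comparison, the plain model recovered 42.9%, 87.7% and 100% of genes changed 1.5-, 2- and 4-fold. With a simulated GC trend it called 5036 unchanged genes, against 14 after GC adjustment, which recovered 33.9%, 91.8% and 100% of the changed genes. That trend was linear, the same in all 3 libraries of the co-culture on nanotopography, and did not depend on length. Its slope was a fixed setting and was not fitted to the data. The trend in the data varied between replicates, so the simulation does not give the share of plain calls that came from GC content. DESeq2 1.42.0 and limma 3.58.1 served as alternatives.

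Genes named by rule were protein-coding, called by both models, at a mean of 5 CPM or more and without overlap, namely the 10 most changed each way and the 8 most abundant with at least a 2-fold change. Panel genes and up to 5 members of each list with the smallest p were added. Other list members were named after their values were seen. The members, lists and models were chosen with earlier results of these data known. Promoters came from RefSeq on GRCm38.p6. Total counts of 5866842 to 8386870 limit the precision of low genes. Results of some genes in the lists are not reported here.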

Additional observations from a re-analysis of the deposited data

Results flagged for a closer look

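The co-culture effect on nanotopography differed from that on control titanium for 12 of the 33 genes named by fold or abundance. The edgeR interaction test called each of them in both models. Over all genes tested the share was 14.1%, with 5.39% higher and 8.72% lower. Mmp13 had a positive difference of 1.35 on the log2 scale (adjusted p = 0.000256). Bhlhe40, which rose in co-culture, had a difference of -0.47 (adjusted p = 0.0104). The other 10 genes fell in co-culture on nanotopography and had negative differences. The genes were named for their levels in libraries that also enter this test, so the shared sign is not independent of the choice. Ribosomal genes gave -2.25 for Rps2, -3.42 for Rps16, -2.84 for Rplp0 and -1.90 for Rplp1. Hist2h2ac gave -4.19, Scand1 -3.10, Rnaseh2c -2.68 and Jund -2.34. Lmna gave -1.74 and Rpn1 -0.89. After GC adjustment these differences were nearer 0, for example 0.56 for Mmp13 and -0.97 for Rplp1, and each was still called.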

How the results depend on the processing

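All 33 genes named by fold or abundance kept their direction and call under the alternatives run for single genes, which do not include the test of a fold of at least 2. The naming rule already required calls by the plain and GC-adjusted models without overlap, so the GC-adjusted result was fixed beforehand. The other alternatives used the same libraries that the genes were picked from. The joint comparison called 5279 genes, and 327 when a fold of at least 2 was tested. Leaving out 1 library gave 3838 to 5621, lowest without replicate 1 of the co-culture on nanotopography, and 2158 to 2947 for calls by both models. The co-cultures differed at 5602 genes, but at 2390 after GC adjustment, 2105 with GC adjustment and the replicate block, and 46 at a fold of at least 2. Leaving out 1 library gave 3271 to 5948, lowest without that same replicate. The interaction fell to 2809 genes with GC adjustment and 2536 with the block added, and ranged over 5320 to 6952 with 1 library left out. GC adjustment changed the sign of 5 estimates, and the cause was not tested. With adjustment, then with the block added, Bglap2 gave 0.219 and 0.203, Ehmt2 0.142 and 0.144, and Kdm6b 0.41 and 0.415. Kdm4b gave 0.0374 and 0.0367, and Setd7 -0.233 and -0.232. The plain estimate of Setd7 was 0.0065 ± 0.10 SE. None of these genes was called in opposite directions by the plain and GC-adjusted models. Same-numbered libraries correlated at 0.298, -0.106 and -0.0134 in their deviations, and at 0.123, -0.0812 and -0.0761 after GC adjustment. Libraries with different numbers correlated at -0.303 to 0.331 before adjustment. With 3 libraries per group, these values cannot show whether the numbers mark pairs. The replicate block gave 5166, 5467 and 6248 calls for the 3 comparisons and 2645 by both models. Counts by both models and list counts without single libraries were chosen after seeing the data.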

Other observations

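Further gene lists gave these counts in the co-culture on nanotopography relative to isolated controls. Over all genes tested, 9.48% rose and 11.4% fell in both models, and the plain model called 17.7% higher and 21.9% lower. Of 17 NF-kB targets, 5 rose (29.4%) and 1 fell (5.88%) in both models, while the plain model called 5 higher and 6 lower and the GC-adjusted model 9 higher and 2 lower. Of 38 proteasome genes 9 fell (23.7%), and of 77 mitochondrial ribosomal protein genes 19 fell (24.7%) and 1 rose. Of 23 actin and tubulin cytoskeleton genes 2 rose (8.7%, near the share of all genes) and 6 fell (26.1%). Of 27 integrin and focal adhesion genes 6 rose (22.2%) and 2 fell (7.41%), with 9 higher and 5 lower in the plain model. Of 25 mitosis genes the plain edgeR model called 9 higher and 1 lower and DESeq2 did the same, with 10 and 1 at an unadjusted p below 0.05, while none was called by both models. Of 21 interferon-stimulated genes 2 rose and 2 fell (9.52% each), near the shares of all genes. Nos2, the inducible nitric oxide synthase, was picked after its values were seen and had 30, 27 and 23 counts in the co-culture on nanotopography, against 1, 2 and 4 counts in isolated controls.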
